A study of Rattus norvegicus with 6 samples.

Results

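Glycolysis splits glucose into pyruvate in the cytosol, and lactate dehydrogenase turns pyruvate into lactate when it is not burned in mitochondria. When oxygen is low, the prolyl hydroxylases that mark HIF-1α for destruction through VHL slow down, and HIF-1α with its partner ARNT switches on glycolytic enzymes and genes of blood supply and cell survival. In peripheral nerve, Schwann cells use glycolysis and export of lactate to nourish axons, and a cut nerve loses its usual blood supply. Here 35 genes of these pathways were described in rat Schwann cell precursors (SCPs) and repair Schwann cells (RSCs). They were chosen by name, with earlier results of these data known. They comprise 15 glycolytic enzymes, 2 lactate dehydrogenases, 6 regulatory kinases, 6 genes of the oxygen-sensing machinery and 6 hypoxia targets. All 35 were among the 29468 gene symbols of the tables, and 34 of them, all except Pdk4, were among the 13003 symbols with a mean of at least 1 FPKM (sequenced fragments divided by transcript length and by the library's mapped total), the level required for testing.

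RNA was sequenced from 3 SCP and 3 RSC preparations. SCPs, the neural crest-derived cells that precede immature Schwann cells, came from the sciatic nerves of both sides and the brachial plexus of embryos at day 14. RSCs, the form that mature Schwann cells take in the stump of an injured nerve, came from the part of the cut sciatic nerve beyond the injury in rats 10 weeks old, 1 week after the cut. All 6 samples were from LEWIS rats labelled wild type, whereas the study's methods give LEWIS rats carrying an RFP transgene as the source of grafted cells and do not state the genotype for the sequenced ones. The nerves were dissociated with enzymes before RNA extraction. The number of animals behind each preparation was not given in the sources used here, so p-values measure the spread between these preparations. Age, nerve segments, injury and dissociation differ between the groups together and cannot be told apart.

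The study's methods describe no sort, and its protocol for adult nerve ends with a short plating on uncoated plastic against fibroblasts and macrophages. Markers of other cell types differed between the groups. Sox10, the transcription factor that defines the Schwann lineage, was at 175 to 181 FPKM in SCPs and 143 to 149 FPKM in RSCs, and the summed level of 10 lineage markers was 546 to 595 and 1879 to 2400 FPKM (3 of 9 tested markers higher in RSCs and 3 higher in SCPs). Summed leukocyte markers were at 18.1 to 45.4 FPKM in SCPs and 2882 to 3117 FPKM in RSCs (10 of 10 tested higher in RSCs), and fibroblast markers at 643 to 1022 and 5380 to 8029 FPKM (7 of 8 higher in RSCs). Endothelial markers were at 39.7 to 69.4 and 95.6 to 106 FPKM (1 of 7 higher in RSCs) and mural cell markers at 74.5 to 252 and 113 to 176 FPKM (1 of 5 higher in RSCs). Erythroid markers were at 31503 to 135424 FPKM in SCPs and 1869 to 2475 FPKM in RSCs (7 of 9 higher in SCPs), with Hbe1 and Hbz listed at 0 in all RSCs. Skeletal muscle markers summed to 60.7 to 177 and 31.7 to 35.2 FPKM (5 of 8 higher in SCPs and 1 in RSCs), neuronal markers to 29.6 to 54.3 and 18.9 to 24.5 FPKM (2 of 5 higher in SCPs), and cartilage markers to 62.0 to 110.0 and 5.42 to 7.42 FPKM (1 of 2 in each direction). Cycling genes were at 182 to 235 and 68.4 to 78.2 FPKM (5 of 5 tested higher in SCPs, with Top2a listed at 0 in every sample). Genes listed here as a dissociation response were at 285 to 326 and 1628 to 1926 FPKM (7 of 8 higher in RSCs). That list holds Fos, Fosb and Junb, and the study ties the AP-1 (Jun/Fos) transcription factor to the repair function of RSCs. For these genes injury and dissociation cannot be told apart. Markers listed at 0 throughout one group were also Cd3e and Alas2 in SCPs, and Rgs5, Tnnt3, Myod1, Elavl4, Isl1, Matn1 and Col9a1 in RSCs. The part of these markers in the results for the 35 genes was not tested, and in such bulk samples fewer cells of a type and less RNA per cell cannot be told apart.

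Differences are given as RSC minus SCP on the log2(FPKM + 1) scale with a standard error (SE), and a gene was called at p under 0.01 in limma's moderated test. Of the 34 tested genes, 8 were higher in RSCs (Hk1, Pfkp, Eno2, Pdk2, Pfkfb4, Egln1, Ndrg1 and Adm) and 4 were higher in SCPs (Aldoc, Eno1, Pkm and Ldha), while 22 were not called. The call rate among all 13003 tested genes was 40.5%, of which 18.1% lay on the RSC side and 22.4% on the SCP side, so the 12 of 34 called here were near the background. Pfkfb4, Ndrg1 and Adm, 3 of the 34, were over 4-fold higher in RSCs, against 7.81% of all tested genes, and 0 were over 4-fold higher in SCPs, against 3.78%. The RSC and SCP samples did not overlap for 11 genes that were higher in RSCs and 10 that were higher in SCPs, against 24.9% and 33.7% of all tested genes (58.6% in both directions together). The median difference of the 34 genes was -0.08, and that of all tested genes was -0.17, so the median of the 34 lay 0.09 above that of all tested genes. A difference within 0.5 of zero on the log2 scale was found for 16 of the 34 genes, and for 34.4% of all tested genes.

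**Figure D1:**
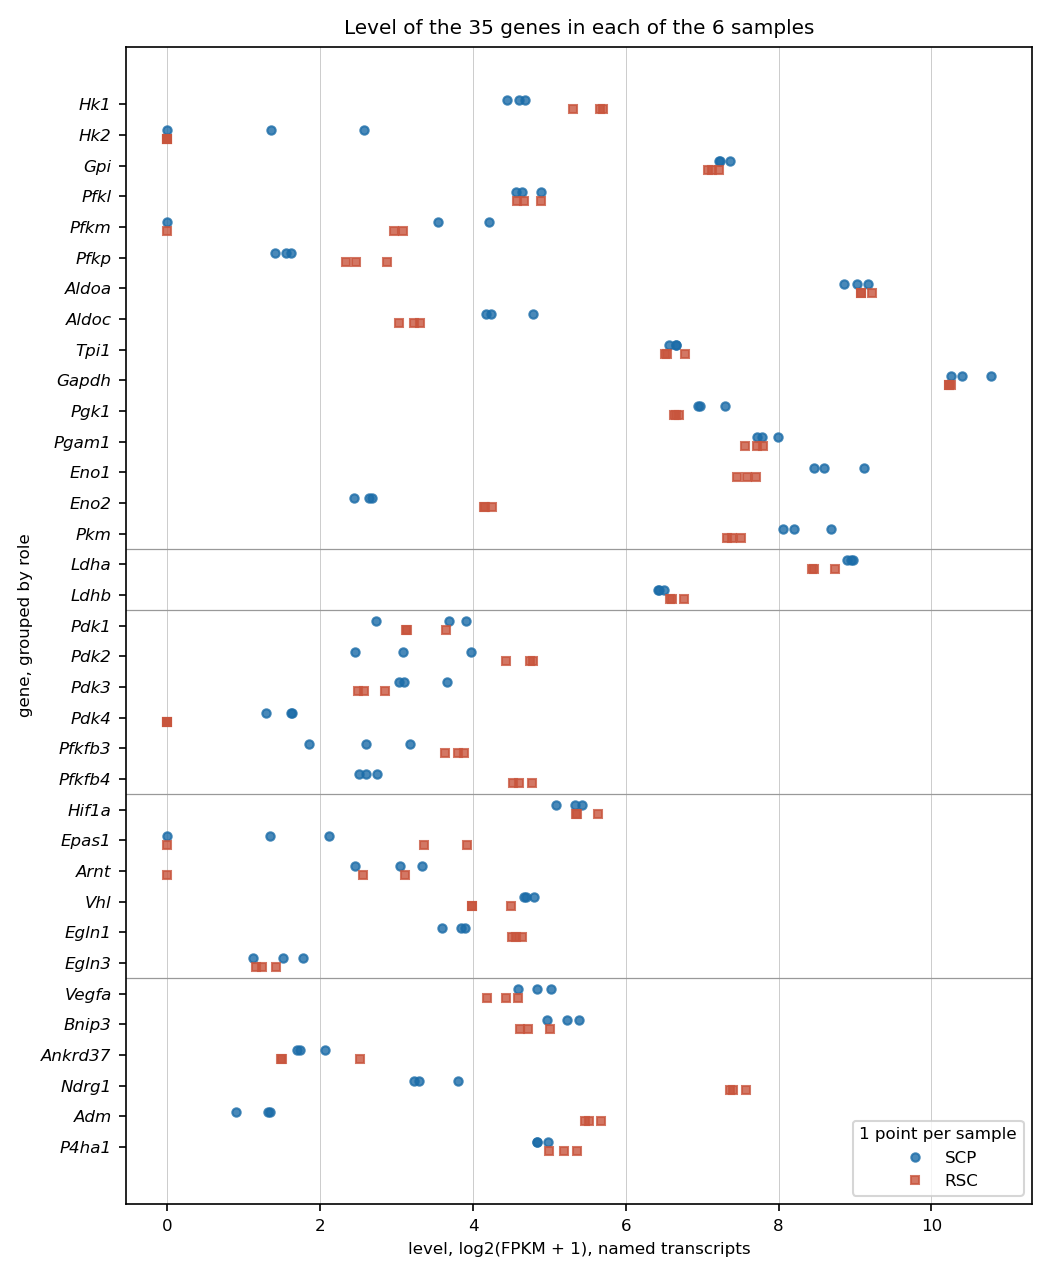
Level of each of the 35 genes in each of the 6 samples, on the log2(FPKM + 1) scale, from named transcripts and grouped by role. SCP and RSC points lie within 0.5 of each other on average for 7 of the 15 glycolytic enzymes, and far apart for Ndrg1 (8.41 to 12.9 FPKM in SCPs, 163 to 190.0 FPKM in RSCs) and Adm (0.869 to 1.53 and 43.4 to 50.1 FPKM).

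**Figure D2:**
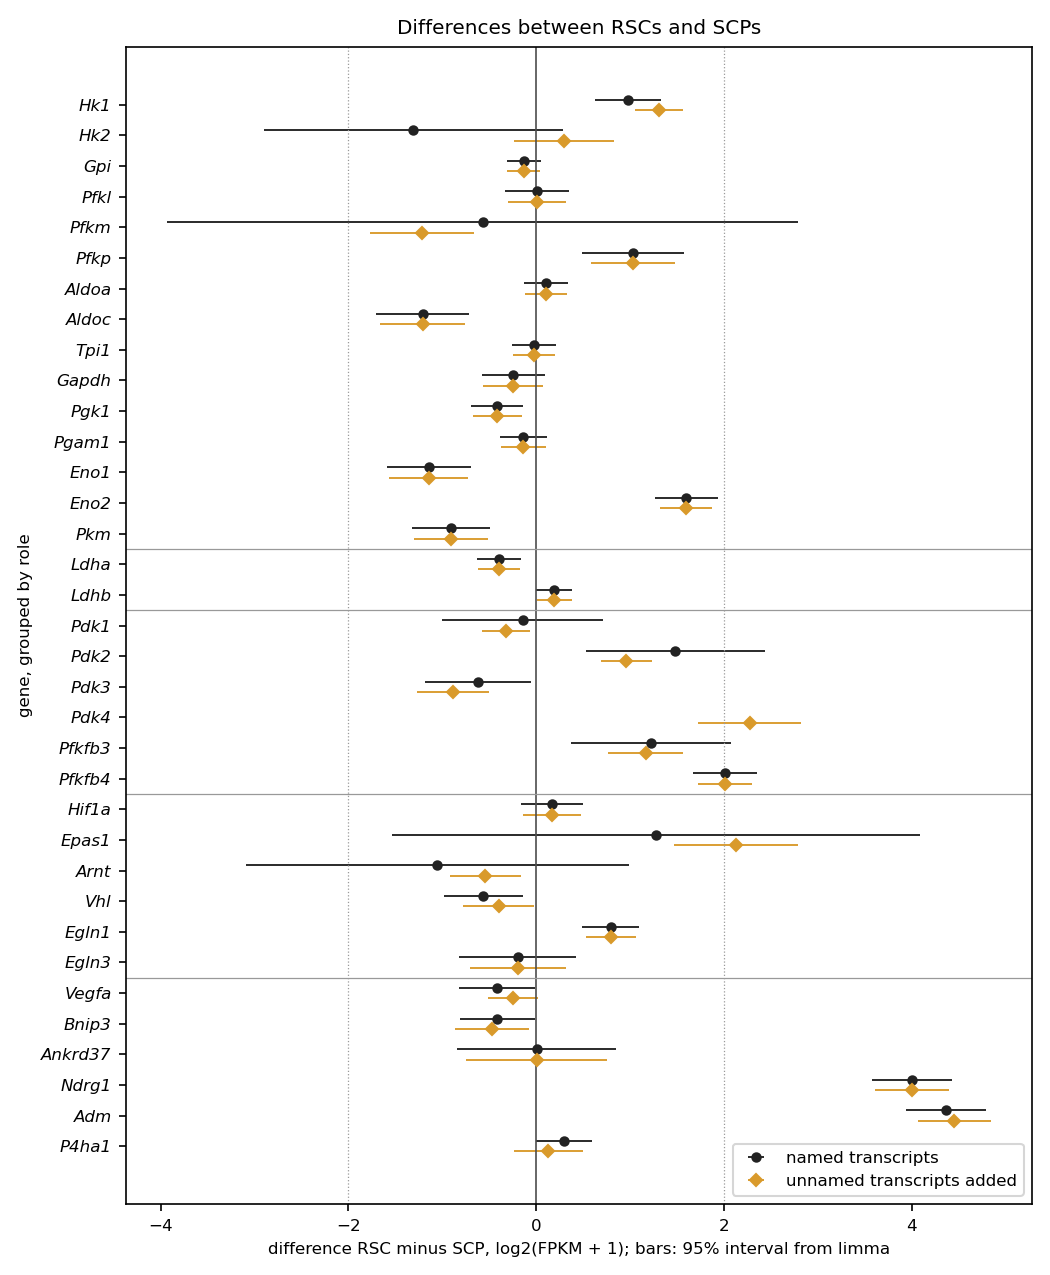
Difference between RSCs and SCPs on the log2(FPKM + 1) scale, with the 95% interval from limma, grouped by role. One series is from named transcripts (34 tested genes) and the other has unnamed transcripts added (35 genes). Dotted lines mark a 4-fold difference, which Adm (4.37), Ndrg1 (4.005) and Pfkfb4 (2.01) exceeded from named transcripts. With unnamed transcripts added, Pdk4 (2.27) and Epas1 (2.13) exceeded it as well.

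Per gene, the tables list named transcripts, and each sample also holds transcripts without a gene name that its own assembly placed at known genes. Those at the 35 genes carried part of their expression, so values are also given with them added where this changed a call, a direction or the separation of the groups. With unnamed transcripts added, 35 genes were tested: 11 rose in RSCs and 7 stood higher in SCPs, against 23.2% and 34.1% of 14020 tested genes (57.3% together), and 5 were over 4-fold higher in RSCs, against 8.57%. In SCPs 0 were over 4-fold higher, against 4.58%. The groups did not overlap for 12 genes in each direction, against 28.8% on the RSC side and 43.6% on the SCP side (72.4% together).

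The first step of glycolysis, the phosphorylation of glucose, is represented by Hk1, which rose in RSCs, and Hk2, which was not called. Hk1 (chr20:31911460-31979780, rn6), the hexokinase of most tissues, was at 24.7, 23.4 and 20.7 FPKM in SCPs and at 49.7, 38.6 and 51.2 FPKM in RSCs, with every RSC sample above every SCP sample. The difference was 0.98 (SE 0.14, limma adjusted p = 0.0025), and 1.31 with unnamed transcripts added. Those added in RSCs covered only part of Hk1, with lengths of 1355, 2344 and 2553 bases. Hk2 (chr4:113559396-113609897), the inducible hexokinase, was listed at 4.94, 1.56 and 0 FPKM in SCPs and at 0 in all RSCs. With its unnamed transcripts added, it was at 14.1, 8.06 and 7.87 FPKM in SCPs and at 11.8, 11.5 and 13.2 FPKM in RSCs, and the groups overlapped. The direction of Hk2 turned with this choice, from -1.31 (SE 0.65, unadjusted p = 0.090 by limma) to 0.30 (unadjusted p = 0.22), and neither value was called. Named transcripts alone gave a call without SCP replicate 3, at -1.96. Of the summed hexokinase FPKM, unnamed transcripts added, Hk2 held 28.2% ± 4.92 (SD, n = 3) in SCPs and 16.3% ± 1.10 (SD, n = 3) in RSCs.

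The next steps isomerise and phosphorylate fructose phosphate, and phosphofructokinase is the main control point of the pathway. Gpi, the isomerase, was at 149 to 163 FPKM in SCPs and 134 to 148 FPKM in RSCs and was not called. Pfkl, the liver-type phosphofructokinase, was at 22.7 to 28.6 FPKM in SCPs and 22.8 to 28.6 FPKM in RSCs, and the groups overlapped. Pfkp, the platelet type (chr17:68510761-68574447), was at 2.07, 1.94 and 1.65 FPKM in SCPs and at 6.32, 4.05 and 4.53 FPKM in RSCs, with no overlap. It rose by 1.03 (SE 0.22, limma adjusted p = 0.011) and lost its call when any one of SCP replicate 2, SCP replicate 3, RSC replicate 1 or RSC replicate 3 was left out (values between 0.88 and 1.08). Its call was also lost with the replicate block (unadjusted p = 0.012 by limma) and by the highest transcript of the gene, with a difference of 0.25 (unadjusted p = 0.74 by limma). Pfkm, the muscle type (chr7:139702066-139722132), was listed at 0, 17.4 and 10.7 FPKM in SCPs and at 6.79, 7.45 and 0 FPKM in RSCs, and was not called. With unnamed transcripts added it was at 28.0, 45.1 and 23.7 FPKM in SCPs and at 13.6, 12.2 and 12.6 FPKM in RSCs, with every SCP sample above every RSC sample. In SCP replicate 2 the added transcripts each covered part of the gene, with 1600 bases at 9.71 FPKM and 898 bases at 18.0 FPKM. Pfkm was then lower in RSCs by -1.22 (SE 0.23, limma adjusted p = 0.0033). In this form Pfkm fell from 53.5% ± 9.70 to 29.8% ± 2.12 of the phosphofructokinase FPKM (SD, n = 3), Pfkp rose from 3.22% ± 0.392 to 11.5% ± 2.79 and Pfkl from 43.3% to 58.6%. These shares are a description, with no test.

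Aldolase splits the phosphorylated sugar, and its minor form, Aldoc, was the one called. Aldoa, the muscle and general form, was at 573, 465 and 522 FPKM in SCPs and at 538, 539 and 598 FPKM in RSCs, with a difference of 0.11 (SE 0.10). In RSC replicates 2 and 3, 103 and 127 FPKM of Aldoa came from a transcript listed at 0 in the other samples. Aldoc, the aldolase of brain and glia (chr10:65586504-65590093), was at 17.9, 17.1 and 26.5 FPKM in SCPs and at 8.90, 8.40 and 7.16 FPKM in RSCs, with no overlap. It was lower in RSCs by -1.21 (SE 0.20, limma adjusted p = 0.0042), and its share of aldolase FPKM was 3.80% ± 0.925 in SCPs and 1.45% ± 0.234 in RSCs (SD, n = 3). From named transcripts, none of the next 4 enzymes was called. Tpi1 was at 93.4 to 100.4 FPKM in SCPs and 90.1 to 108 FPKM in RSCs, Gapdh at 1222 to 1757 FPKM and 1199 to 1221 FPKM, and Pgam1 at 209 to 253 FPKM and 188 to 221 FPKM. Pgk1, which makes the first ATP of the pathway (chrX:77263399-77279373), was at 157, 122 and 125 FPKM in SCPs and at 102.5, 97.8 and 100.4 FPKM in RSCs. Its groups did not overlap, and its difference of -0.41 (SE 0.11) missed the threshold with an unadjusted p of 0.011 by limma, but was called without SCP replicate 1 (-0.30), after quantile normalization (-0.52) and in the fit with unnamed transcripts added (-0.41, unadjusted p = 0.0079). Gapdh, Pgk1 and Ldha have processed copies elsewhere in the rat genome, and how the authors' software split reads among such copies is not given in the sources used here.

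Of the genes for the last steps to pyruvate, Eno1 and Pkm were lower in RSCs and Eno2 was higher. Eno1, the general enolase (chr5:167288223-167299613), was at 556, 387 and 352 FPKM in SCPs and at 192, 175 and 207 FPKM in RSCs, with a difference of -1.15 (SE 0.18, limma adjusted p = 0.0035). Eno2, the form of neurons and some glia (chr4:157285192-157294086), moved the other way. It was at 4.42, 5.39 and 5.21 FPKM in SCPs and at 16.9, 16.7 and 18.0 FPKM in RSCs, a rise of 1.60 (SE 0.14, limma adjusted p = 3.2e-04). Eno2 therefore held 1.21% ± 0.365 of enolase FPKM in SCPs and 8.25% ± 0.373 in RSCs (SD, n = 3), while Eno1 remained the more abundant form in every sample. Pkm, the pyruvate kinase of muscle and growing cells (chr8:64480944-64502954), was at 410, 294 and 266 FPKM in SCPs and at 167, 160 and 180 FPKM in RSCs, lower by -0.91 (SE 0.17, limma adjusted p = 0.0064). Its FPKM came from 2 of 4 listed transcripts. The one of 2433 bases was at 319, 226 and 208 FPKM in SCPs and 141, 134 and 140.5 FPKM in RSCs, and the one of 1971 bases at 91.1, 68.6 and 58.0 FPKM and 25.6, 25.7 and 39.9 FPKM. Both were lower in all RSC samples than in all SCP samples. Summed over the 15 glycolytic enzymes, FPKM was 4053, 3182 and 3028 in SCPs and 2749, 2686 and 2893 in RSCs, and the groups did not overlap. The log2 ratio of the group means was -0.30, and -0.16 without SCP replicate 1, whose Gapdh, Eno1 and Pkm were the highest of the 6 samples. The median difference of all tested genes was -0.17. Median-of-ratios size factors were 1.05 to 1.12 in SCPs and 0.933 to 0.951 in RSCs. Division by them would bring the summed values of the groups closer, and was not run for this sum, so the separation holds for unscaled FPKM only.

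**Figure D3:**
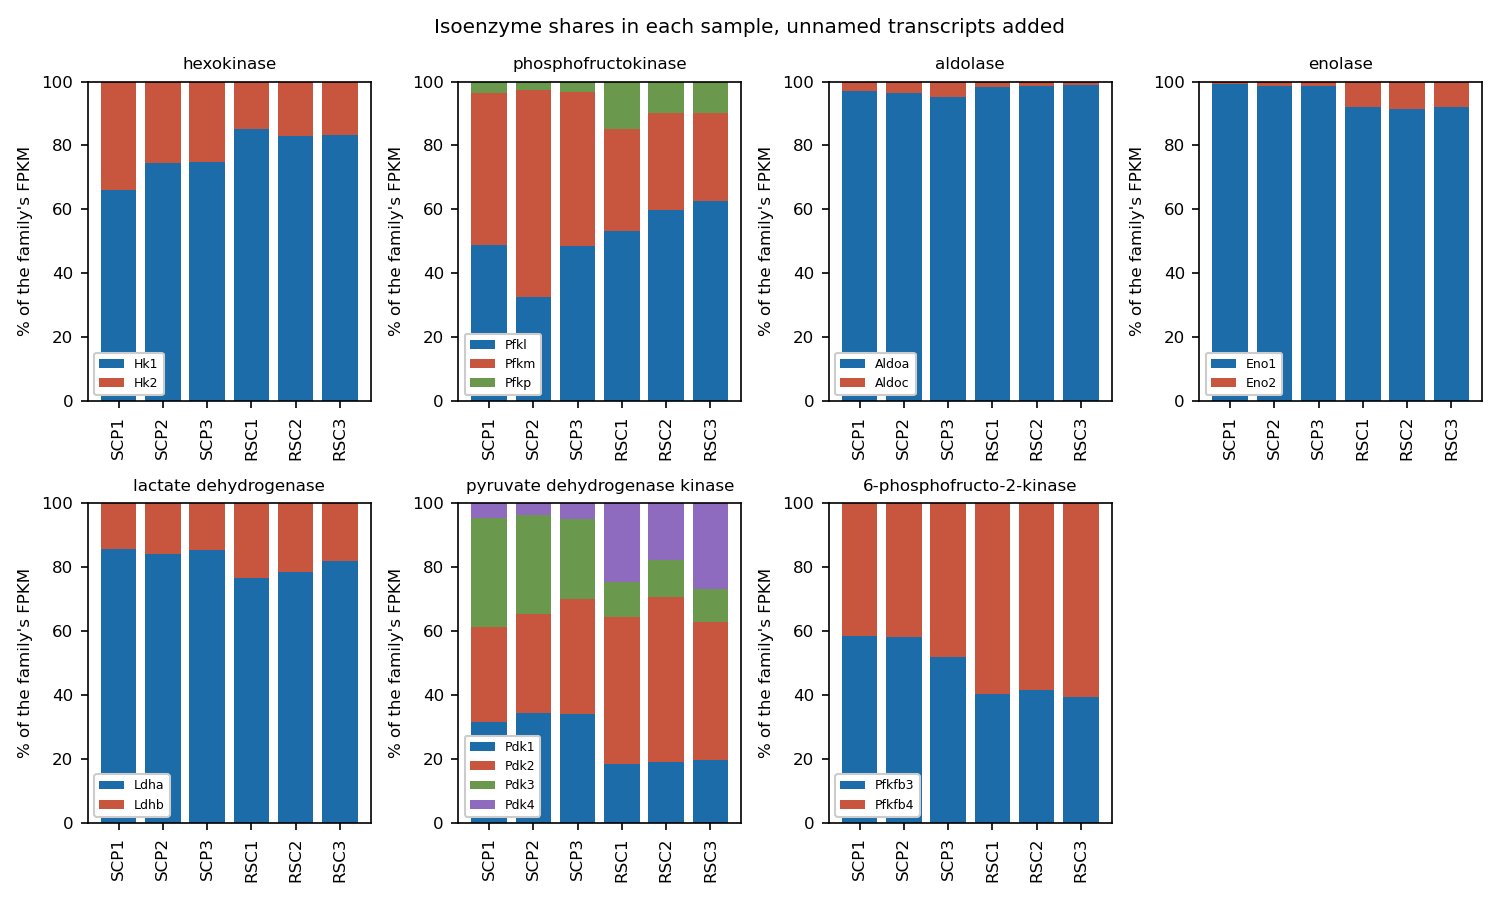
Share of each isoenzyme in the summed FPKM of its family, in percent, for each of the 6 samples (SCP1 to SCP3, RSC1 to RSC3), unnamed transcripts added. The Eno2 share is 8.25% in RSCs on average and 1.21% in SCPs, and the Pfkm share 29.8% and 53.5%.

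Lactate dehydrogenase joins glycolysis to lactate. Ldha, the form that favours lactate production (chr1:102900288-102909713), was at 503, 475 and 495 FPKM in SCPs and at 352, 347 and 425 FPKM in RSCs, with no overlap. It fell by 0.40 on the log2 scale (SE 0.09, limma adjusted p = 0.016), which was -0.23 relative to the median gene. This call was lost when any one of the 3 SCP replicates, RSC replicate 1 or RSC replicate 2 was left out (values between -0.42 and -0.34), and under median-of-ratios scaling, with -0.18. Ldhb, the heart form that favours use of lactate, was at 85.0 to 89.97 FPKM in SCPs and 94.9 to 107 FPKM in RSCs, with no overlap but a difference of 0.19 that was not called. Its share of lactate dehydrogenase FPKM was 15.04% ± 0.771 in SCPs and 21.1% ± 2.63 in RSCs (SD, n = 3).

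The kinases that steer pyruvate and fructose phosphate showed some of the larger changes. Pfkfb3 and Pfkfb4 make the sugar bisphosphate that activates phosphofructokinase. Pfkfb4 (chr8:117733355-117776525) was at 5.72, 5.05 and 4.71 FPKM in SCPs and at 23.3, 22.0 and 26.3 FPKM in RSCs, with no overlap. Its rise of 2.01 (SE 0.14, limma adjusted p = 1.5e-04) lay just past the 4-fold limit, and was 1.94 without RSC replicate 3 and 1.96 without SCP replicate 3. Pfkfb3 (chr17:70632801-70713736) was at 8.07, 2.60 and 5.07 FPKM in SCPs and at 11.4, 12.97 and 13.7 FPKM in RSCs. The groups did not overlap, and the difference of 1.23 (SE 0.35) missed the threshold with an unadjusted p of 0.013 by limma. Without SCP replicate 1 it was called at 1.55, and with unnamed transcripts added at 1.17 (SE 0.17, limma unadjusted p = 3.0e-04). Summed, the pair held 11.9 FPKM in SCPs and 40.0 FPKM in RSCs with unnamed transcripts added.

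Pyruvate dehydrogenase kinases block the entry of pyruvate into mitochondria. Pdk1, the form best known as a HIF-1 target, was at 5.67 to 14.0 FPKM in SCPs and 7.68 to 11.6 FPKM in RSCs, and the groups overlapped. With unnamed transcripts added it was at 12.8 to 14.0 and 9.80 to 11.6 FPKM, without overlap, and the difference of -0.32 was not called. Pdk2 (chr10:82838270-82852758) was at 4.47, 7.45 and 14.7 FPKM in SCPs and at 26.5, 20.6 and 25.8 FPKM in RSCs, a rise of 1.48 (SE 0.39, limma adjusted p = 0.023). Its call was lost without any single replicate except SCP replicate 3, with values between 1.12 and 1.59. With unnamed transcripts added, Pdk2 was at 11.4 to 14.7 FPKM in SCPs and 25.8 to 26.8 FPKM in RSCs. The difference was then smaller but called, at 0.96 (SE 0.11, limma adjusted p = 4.0e-04). Pdk3 was at 7.16 to 11.6 FPKM in SCPs and 4.64 to 6.20 FPKM in RSCs, without overlap. Its difference of -0.62 was not called, and with unnamed transcripts added it was -0.88 (SE 0.16, unadjusted p = 0.0011 by limma). Pdk4, which rises with fasting and fat burning (chr4:30546772-30556774), was listed at 2.104, 1.44 and 2.07 FPKM in SCPs and at 0 in all RSCs, so its mean lay under the level required for testing. In RSCs, however, unnamed transcripts spanned the gene, with lengths of 2592, 3349 and 2617 bases against 1425 bases for the named transcript. RSC replicate 3 also held an unnamed transcript of 1961 bases over part of the gene, at 7.05 FPKM. With all unnamed transcripts added, Pdk4 stood at 14.3, 9.18 and 15.9 FPKM in RSCs, above every SCP sample, and the difference was 2.27 (SE 0.23, limma adjusted p = 1.9e-04). Its share of the kinase family was then 4.56% ± 0.613 in SCPs and 23.1% ± 4.78 in RSCs (SD, n = 3). The Pdk1 share was 33.3% and 18.9%, that of Pdk2 32.2% and 47.1%, and that of Pdk3 30.0% and 10.9%.

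**Figure D4:**
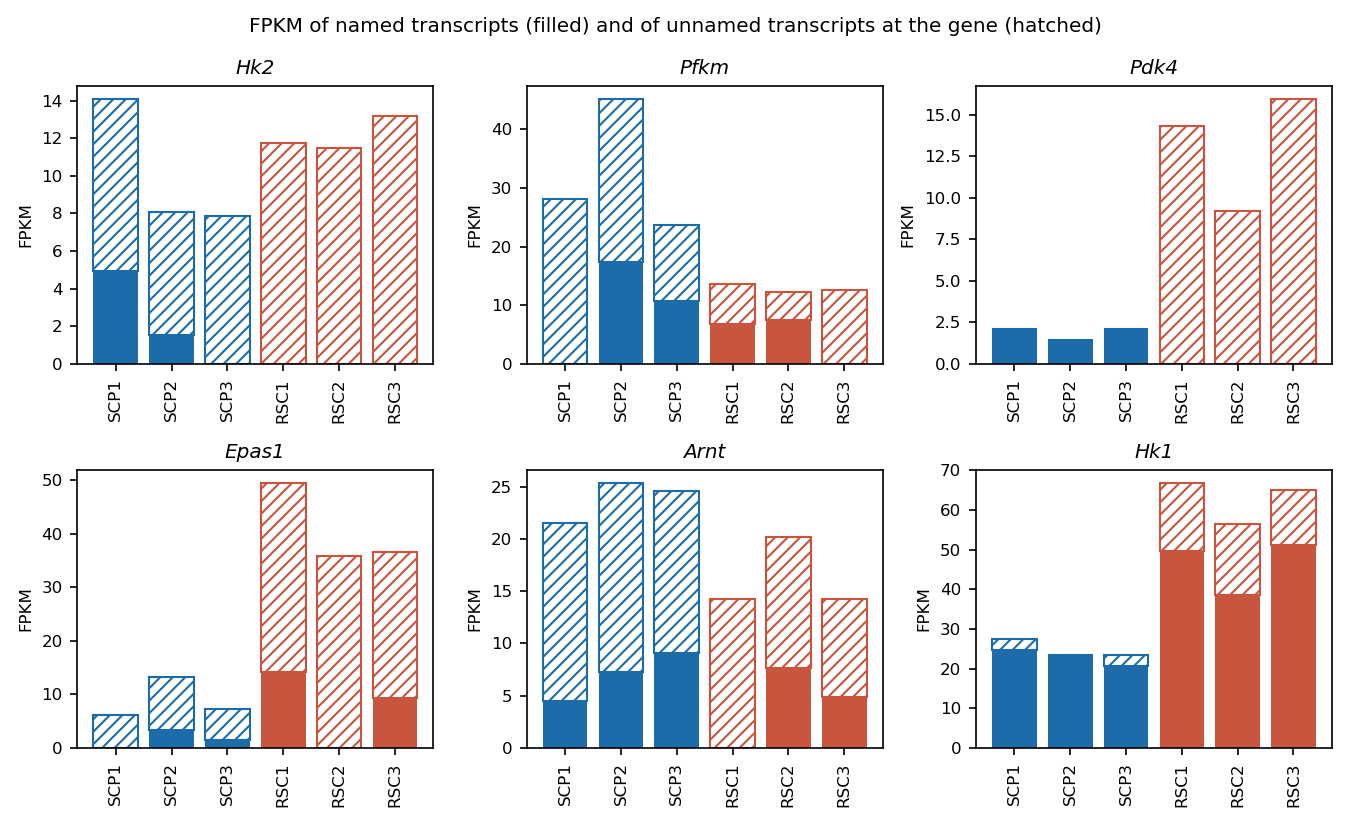
FPKM in each of the 6 samples for genes in which unnamed transcripts carry much of the expression, split into named (filled) and unnamed (hatched) transcripts. For Pdk4 the RSC bars are wholly unnamed (14.3, 9.18 and 15.9 FPKM), and for Epas1 the RSC total of 35.8 to 49.5 FPKM exceeds the SCP total of 6.19 to 13.2 FPKM.

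Of the 6 oxygen-sensing genes, Egln1 was called higher in RSCs, and Epas1 as well with unnamed transcripts added. Of all tested genes, 18.1% were called higher in RSCs, and 23.2% with unnamed transcripts added. Hif1a, the oxygen-labile subunit (chr6:96810872-96856307), was at 41.8, 39.2 and 33.1 FPKM in SCPs and at 48.9, 40.1 and 39.7 FPKM in RSCs, and the groups overlapped. HIF-1α is regulated chiefly through its protein, which these data do not measure. Epas1, which encodes HIF-2α and is prominent in endothelium (chr6:10306508-10385239), was listed at 0, 3.35 and 1.53 FPKM in SCPs and 14.2, 0 and 9.29 FPKM in RSCs. With unnamed transcripts added it was at 6.19, 13.2 and 7.18 FPKM in SCPs and at 49.5, 35.8 and 36.6 FPKM in RSCs. It was then higher by 2.13 (SE 0.27, limma adjusted p = 6.1e-04), whereas named transcripts alone gave 1.28 (SE 1.14) and no call. Summed endothelial markers, from named transcripts only, were at 39.7 to 69.4 FPKM in SCPs and 95.6 to 106 FPKM in RSCs. Of the 7 tested, 1 was called higher in RSCs. The part of these markers in the Epas1 difference was not tested. Arnt was listed at 4.47 to 9.04 FPKM in SCPs and 0 to 7.61 FPKM in RSCs, and with unnamed transcripts added at 21.5 to 25.3 and 14.2 to 20.2 FPKM, without overlap in the second form and called in neither. Egln1, the main oxygen-sensing prolyl hydroxylase (chr19:57660194-57701158), was at 13.3, 11.1 and 13.8 FPKM in SCPs and at 23.9, 21.8 and 22.7 FPKM in RSCs. It rose by 0.80 (SE 0.12, limma adjusted p = 0.0032), with no overlap. Egln3, a hydroxylase that is itself a HIF target, was at 1.18 to 2.42 FPKM in SCPs and 1.23 to 1.67 FPKM in RSCs. Vhl was at 24.3 to 27.0 FPKM in SCPs and 14.8 to 21.7 FPKM in RSCs, without overlap, and its difference of -0.56 was not called (unadjusted p = 0.017 by limma), except without RSC replicate 3, when it was -0.74.

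Of the 6 hypoxia targets, 2 were called higher in RSCs, beside 18.1% of all tested genes. Those 2 were the largest changes of the 35 genes. Adm, which encodes the vasodilator peptide adrenomedullin (chr1:175443208-175447260), was at 0.869, 1.49 and 1.53 FPKM in SCPs and at 43.4, 44.9 and 50.1 FPKM in RSCs. It rose by 4.37 (SE 0.17, limma adjusted p = 3.0e-05). The named transcript behind these Adm values carried the status flag LOWDATA in all 6 samples. Ndrg1, a stress-inducible gene needed for the upkeep of myelin (chr7:107734323-107775701), was at 8.41, 8.83 and 12.9 FPKM in SCPs and at 163, 190.0 and 169 FPKM in RSCs. Its rise was 4.005 (SE 0.17, limma adjusted p = 3.8e-05). For both genes every RSC sample lay far above every SCP sample. The other 4 targets were not called. Vegfa, the main angiogenic factor, was at 27.5, 31.6 and 23.1 FPKM in SCPs and at 20.5, 17.1 and 23.0 FPKM in RSCs, with SCPs above RSCs and a difference of -0.42 that was not called (unadjusted p = 0.046 by limma). Vegfa with unnamed transcripts added was at 27.5, 31.6 and 32.3 FPKM in SCPs and at 28.2, 25.3 and 23.0 FPKM in RSCs, so that the groups overlapped, and the difference was -0.25. Bnip3, a mitophagy receptor, was at 36.5, 30.2 and 41.0 FPKM in SCPs and at 25.3, 23.6 and 31.3 FPKM in RSCs, and the groups overlapped. Ankrd37 was at 2.25 to 3.19 FPKM in SCPs and 1.80 to 4.75 FPKM in RSCs. P4ha1, a collagen prolyl hydroxylase subunit, was at 27.5 to 30.7 FPKM in SCPs and 31.0 to 40.0 FPKM in RSCs, with RSCs above SCPs and a difference of 0.29 that was not called. P4ha1 with unnamed transcripts added was at 33.1 to 38.7 and 31.0 to 45.9 FPKM, the groups overlapped and the difference was 0.13.

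HIF binds a short core, ACGTG or GCGTG, near its targets. The promoters of 6 of these genes are printed. They were picked to contrast genes that changed with targets that did not, so the contrast reflects that choice. Each is the 250 bases before the start of transcription (RefSeq, build GRCr8, which differs from the rn6 build of the expression tables), 5′ to 3′ on the gene's strand, with each core or its reverse complement in capitals. Where the core and its complement overlap they form CACGTG, which counts as a match on each strand. Adm and Pfkfb4 were over 4-fold higher in RSCs and held 0 matches, Eno2 rose and held 1, Ldha fell and held 4, and Bnip3 and Ankrd37, which were not called, held 4 each. Of the 7 genes higher in RSCs with a promoter available, only Adm and Pfkfb4 lacked a match. Vegfa and P4ha1, targets not called and not printed, held 0 and 2 matches.
Adm, chr1:174179950-174180199, plus strand: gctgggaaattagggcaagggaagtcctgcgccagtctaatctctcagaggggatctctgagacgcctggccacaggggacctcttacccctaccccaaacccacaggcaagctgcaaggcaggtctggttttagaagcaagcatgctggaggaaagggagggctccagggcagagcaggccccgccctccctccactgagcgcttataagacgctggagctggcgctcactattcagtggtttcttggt
Pfkfb4, chr8:118525916-118526165, plus strand: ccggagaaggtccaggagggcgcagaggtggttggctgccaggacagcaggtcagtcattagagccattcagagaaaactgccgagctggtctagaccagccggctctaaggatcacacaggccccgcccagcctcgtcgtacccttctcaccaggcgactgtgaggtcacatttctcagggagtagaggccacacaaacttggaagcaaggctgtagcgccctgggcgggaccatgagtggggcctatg
Eno2, chr4:159267221-159267470, minus strand: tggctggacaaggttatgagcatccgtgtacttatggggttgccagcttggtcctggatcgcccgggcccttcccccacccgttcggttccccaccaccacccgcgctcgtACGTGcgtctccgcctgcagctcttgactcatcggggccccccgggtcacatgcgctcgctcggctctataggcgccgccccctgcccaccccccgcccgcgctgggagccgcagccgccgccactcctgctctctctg
Ldha, chr1:106507842-106508091, plus strand: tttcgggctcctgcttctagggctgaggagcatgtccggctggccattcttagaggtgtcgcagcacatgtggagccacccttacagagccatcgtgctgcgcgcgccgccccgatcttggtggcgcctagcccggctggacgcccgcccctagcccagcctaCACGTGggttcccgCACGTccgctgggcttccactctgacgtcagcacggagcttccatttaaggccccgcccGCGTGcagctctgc
Bnip3, chr1:203154963-203155212, minus strand: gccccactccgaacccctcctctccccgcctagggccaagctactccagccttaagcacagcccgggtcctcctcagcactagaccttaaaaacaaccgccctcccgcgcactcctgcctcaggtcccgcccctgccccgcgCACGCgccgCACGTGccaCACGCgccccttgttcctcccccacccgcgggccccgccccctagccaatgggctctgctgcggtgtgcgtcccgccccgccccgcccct
Ankrd37, chr16:53001257-53001506, plus strand: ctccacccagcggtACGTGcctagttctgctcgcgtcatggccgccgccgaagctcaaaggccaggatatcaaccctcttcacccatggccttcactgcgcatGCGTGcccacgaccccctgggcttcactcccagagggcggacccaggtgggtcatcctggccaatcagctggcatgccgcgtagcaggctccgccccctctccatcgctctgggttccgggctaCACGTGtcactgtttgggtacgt

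A promoter entry was found for 33 of the 35 genes, all except Ndrg1 and Pgk1. At least 1 core on either strand was present for 22 of the 33 (66.7%), against 36.7% of 33469 promoter windows of the same length and 39.6% of 27457 gene symbols when any window of a symbol counted. The palindrome CACGTG was present for 6 of the 33 (18.2%: Ldha, Pdk2, Pfkfb3, Hif1a, Bnip3 and Ankrd37), against 5.59% of all windows. That 5.59% is per window, whereas the 18.2% is per gene, and no share per symbol was computed for the palindrome. These backgrounds also include genes under the level required for testing, whereas 34 of the 35 genes passed it. The shares are therefore not of like sets. By call, the core was present in 5 of 7 genes that rose in RSCs, 3 of 4 that were lower there and 14 of 21 that were not called. A match is a description of letters and not a binding site, and these counts say nothing of distal sites.

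The rest of the pathway, named by function, moved in both directions. Of 43 other genes of glucose and pyruvate metabolism 39 were listed and 29 tested, of which 8 were higher in RSCs and 5 in SCPs, beside 18.1% and 22.4% of all tested genes. Hk3, a hexokinase found mainly in leukocytes, was at 0.0609, 0.114 and 0.162 FPKM in SCPs and at 8.13, 7.13 and 6.63 FPKM in RSCs, a difference of 2.90 (SE 0.20, limma adjusted p = 1.5e-04). The summed leukocyte markers given above moved the same way, and their part in Hk3 was not tested. Slc16a7, a monocarboxylate transporter, was at 0.0926 to 0.492 FPKM in SCPs and 5.44 to 7.20 FPKM in RSCs (difference 2.52). Slc2a1, the glucose transporter GLUT1, was at 34.1, 25.9 and 23.5 FPKM in SCPs and at 76.8, 75.7 and 61.9 FPKM in RSCs, and rose by 1.34 (SE 0.17, limma adjusted p = 0.0014). In the other direction, Eno3 and Pklr, the enolase of muscle and the pyruvate kinase of liver and red cells, were at 1.25 to 9.60 and 1.36 to 3.87 FPKM in SCPs and listed at 0 in all RSCs, and Pfkfb1 was at 2.08 to 2.83 and 0.146 to 0.551 FPKM. With unnamed transcripts added, Eno3 was at 9.60 to 10.6 FPKM in SCPs and at 5.81, 0 and 0 FPKM in RSCs. It was then not called (unadjusted p = 0.011 by limma). Muscle and erythroid markers were likewise higher in SCPs, and their part in these values was not tested.

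Of 52 other hypoxia genes 51 were listed and 44 tested, of which 11 were higher in RSCs and 12 in SCPs, beside the same 18.1% and 22.4% of all tested genes. Bhlhe40, a repressor induced by hypoxia, was at 0.632, 1.77 and 0.832 FPKM in SCPs and at 34.7, 27.1 and 43.9 FPKM in RSCs (difference 4.14, SE 0.28). Its relative Bhlhe41 was at 0.406 to 0.857 FPKM in SCPs and 14.8 to 16.1 FPKM in RSCs (difference 3.35). On the other side, Arnt2, a neural relative of Arnt, was at 8.53, 14.6 and 11.6 FPKM in SCPs and at 0, 2.21 and 0.515 FPKM in RSCs (difference -2.86, SE 0.47, limma adjusted p = 0.0040). Igfbp3, a binding protein of insulin-like growth factors, was at 77.6 to 84.2 FPKM in SCPs and 16.0 to 23.9 FPKM in RSCs (difference -2.05). P4ha3 was at 12.5 to 18.7 and 1.57 to 5.36 FPKM (difference -2.0). Over both lists 7 of 73 tested genes were over 4-fold higher in RSCs and 3 over 4-fold higher in SCPs, near the 7.81% and 3.78% of all tested genes, and the median difference was -0.19, beside -0.17 over all tested genes.

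**Figure D5:**
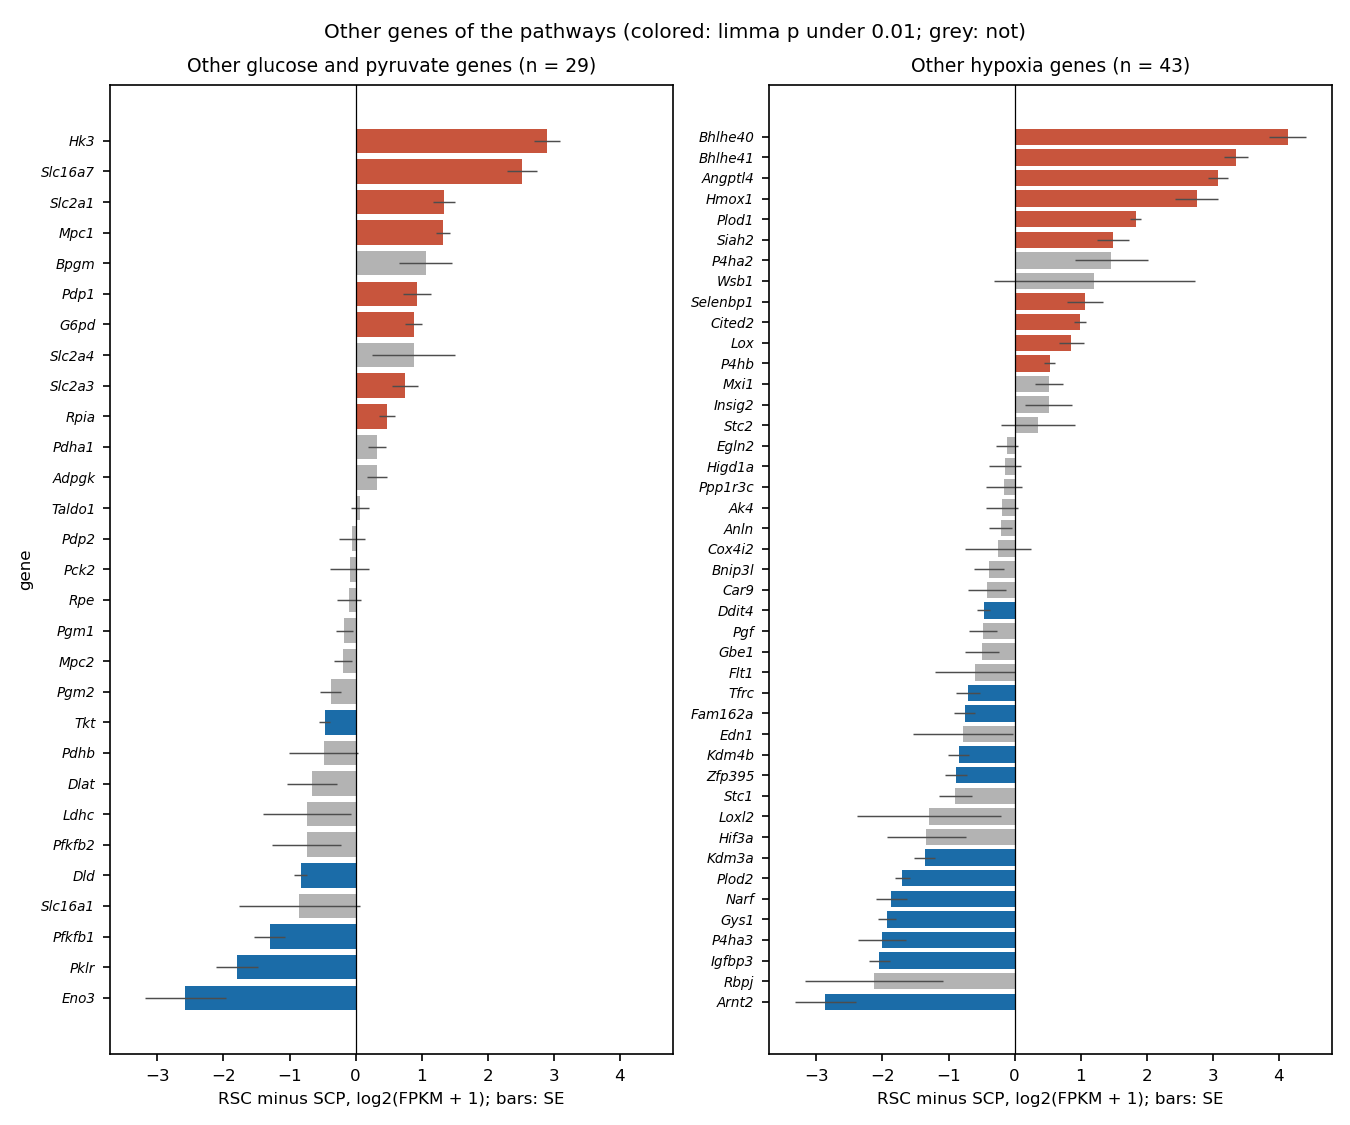
Difference between RSCs and SCPs for the tested genes of the other glucose and pyruvate list (29 genes) and of the other hypoxia list (43 of 44 genes), on the log2(FPKM + 1) scale with the SE, colored where limma's p was under 0.01. Bars point in both directions in each list, with Bhlhe40 (4.14) highest and Arnt2 (-2.86) lowest.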

How the data were processed

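Libraries of mRNA from 3 SCP and 3 RSC preparations were sequenced, and the authors aligned the reads to rn6 and estimated transcript levels. The submitters' processing notes name FastQC 0.11.2, TopHat2 2.1.0 and Cufflinks 2.2.1. The deposited tables give FPKM per transcript and, per the file headers, a coverage signal and bounds of FPKM, but no read counts, so absolute depth is unknown. Coverage per FPKM, set to 1 in the highest sample, was 0.878 to 1.00 in SCPs and 0.790 to 0.841 in RSCs, and was used only for this. Unnamed transcripts held 26.1% to 31.9% of FPKM in SCPs and 18.6% to 23.4% in RSCs. A value of 0 may be a failed estimate, so such genes are described as listed at 0. Some estimates also carry the status flag LOWDATA, and flagged values were kept. It was set in all 6 samples for the expressed named transcripts of Adm, Pfkm, Epas1 and Hk2. The Pkm transcript of 1971 bases and a Pdk1 transcript of 1581 bases had it in all 6 samples too. So did a Pfkfb4 transcript of 1739 bases, at 2.25, 2.32 and 2.42 FPKM in SCPs and 0, 0 and 6.63 FPKM in RSCs. A Pfkfb3 transcript of 2148 bases was likewise flagged in all 6 samples.

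Samples were grouped by their GEO labels. FPKM was summed by gene symbol, leaving out 77 transcripts per table whose symbols had become dates. Symbols averaging at least 1 FPKM entered limma 3.58.1 (R 4.3.3, variance trend, two-sided) on log2(FPKM + 1), which understates changes of low genes. Calls used unadjusted p under 0.01 and, for over 4-fold, a log2 difference over 2, and adjusted p-values are Benjamini-Hochberg over all tested genes. The fit was tested on simulated data. Members and lists were chosen with earlier results of these data known. All 35 members were named, and from each other list the 3 called genes with the largest difference in each direction, 1 of which is not reported here. Alternatives were another pseudocount (0.1), no filter or a mean of at least 5 FPKM, quantile and median-of-ratios scaling, no variance trend, a replicate block, adjusted p under 0.01, the highest transcript, unnamed transcripts added, zeros left out, the ratio of group means and leaving out each sample. Promoter windows came from RefSeq (GRCr8), matched by symbol.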

Additional observations from a re-analysis of the deposited data

How the results depend on the processing

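The precision is limited by 3 preparations a group and by tables without counts. Of the 12 called members, 9 were called in the same direction in every alternative run, and Pfkp, Ldha and Pdk2 were not. Of the 22 not called, 10 were called in at least 1 alternative, and no called member changed sign. With unnamed transcripts added, 7 members were higher in SCPs rather than 4, and 5 rather than 3 were over 4-fold higher in RSCs. By the highest transcript of each gene, 10 other pathway genes rather than 17 were higher in SCPs. By that choice 36.7% of all tested genes were called, and 46.0% of these calls were higher in RSCs. The members' median of -0.08 became 0.12 under median-of-ratios scaling, 0.0045 with unnamed transcripts added and -0.015 from the ratio of group means, and ranged from -0.092 to -0.015 when single samples were left out, with -0.015 without RSC replicate 1. Median-of-ratios scaling also moved the median of all genes from -0.17 to 0.0053, and the share of calls higher in RSCs from 44.6% to 55.5%, while unnamed transcripts gave 40.4%. The share of all tested genes called was 40.5%, and 57.3% with unnamed transcripts added.

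Sign changes occurred only among members that were not called. Under median-of-ratios scaling Gpi was 0.078, Tpi1 0.19, Pgam1 0.074 and Pdk1 0.047. Hk2 was 0.30 with unnamed transcripts added, and by the highest transcript Aldoa was -0.11 and Pfkl -0.048. Ankrd37 was -0.023 with a pseudocount of 0.1 and -0.083 after quantile normalization. Leaving out single samples gave ranges on both sides of 0: Pfkl -0.081 to 0.10, Pfkm -1.86 to 0.44, Tpi1 -0.10 to 0.029, Pdk1 -0.50 to 0.089 and Ankrd37 -0.34 to 0.18. The cause of these changes was not tested.

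SCP and RSC samples share only a replicate number. Their same-number deviations correlated at 0.044, -0.0049 and 0.026 over 13003 genes, and each was too small to treat the numbers as pairs. With the replicate block, 6 members were higher in RSCs and 3 in SCPs, with 3 over 4-fold higher in RSCs. Of the other pathway genes, 15 were then higher in RSCs and 13 in SCPs. In that setting 32.9% of all tested genes were called, and 47.3% of these calls were higher in RSCs.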
